A study of Mus musculus with 25 samples.

Results

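The collagen chain genes of the mouse were examined for Spin1 occupancy in primary myoblasts. They were chosen by symbol alone, as the protein-coding RefSeq genes named Col, a number, the letter a and a number. This gave 44 genes among 21000 protein-coding genes. Spin1 is a reader of histone methylation that binds H3K4me3, the trimethylated lysine of histone H3 found around the starts of active genes. ChIP-seq was performed with a custom antibody against Spin1 and with an antibody against H3K4me3. Each antibody gave 1 library, and input DNA served as control. In the labels, the titles give the mark as H3K4me3, whereas the antibody entry reads H3K4me. The cells of all libraries were isolated by preplating from limb muscle of C57BL/6 mice (C57BL/6 N in the methods) at an age of 10 days and carried no knockout. They were cultured precursors of muscle fibers, so the matrix-producing cells of the tissue were not measured as such.

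Collagens are built from 3 chains that wind into a triple helix, and most types combine the products of several genes. Fibrillar collagens bear the tension in connective tissue, collagen IV forms the meshwork of basement membranes, and FACIT collagens attach to the surface of fibrils. Collagen VI forms beaded filaments next to the muscle basement membrane, and its loss causes muscular dystrophy. In muscle, fibroblasts are the main source of fibrillar collagen, and cultured myoblasts also express many chains.

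Occupancy means that a peak touched TSS±1 kb of a curated transcript by at least 1 bp. Spin1 peaks were found at 25 of the 44 collagen genes, or 56.8%, compared with 56.7% of all protein-coding genes. H3K4me3 peaks were found at 34 genes, or 77.3%, compared with 68% of all genes. All 25 genes with Spin1 also carried H3K4me3, and the background of genes with both peaks was 56.6%. H3K4me3 without Spin1 was seen at 9 genes, or 20.5%, compared with 11.3%. Neither peak was present at 10 genes, or 22.7%, compared with 32%. Thus, the share of collagen genes with Spin1 was close to that of all genes, whereas Spin1 was present at a smaller share of those with H3K4me3, at 73.5% compared with 83.3%. These shares were not matched for the CpG content of the promoter, by which the counts are given further below. There were no replicates, so none of these differences was tested against the spread between cultures. A weak peak present in all cells and a strong peak present in few cells cannot be told apart in such cultures.

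The genes with both peaks were Col1a1, Col1a2, Col3a1, Col5a1, Col5a2, Col5a3, Col11a1 and Col27a1 of the fibrillar class, Col4a1, Col4a2 and Col4a5 of collagen IV, Col12a1, Col14a1, Col16a1 and Col19a1 of the FACIT class, Col6a1, Col6a2 and Col6a3 of collagen VI, and Col8a1, Col13a1, Col15a1, Col18a1, Col23a1, Col25a1 and Col26a1 among the others. H3K4me3 alone was found at Col2a1, Col24a1, Col4a3, Col4a4, Col4a6, Col9a2, Col6a6, Col7a1 and Col8a2. Neither peak was found at Col11a2, Col9a1, Col9a3, Col20a1, Col22a1, Col6a4, Col6a5, Col10a1, Col17a1 and Col28a1. The plot of states by class shows the same counts.

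**Figure D1:**
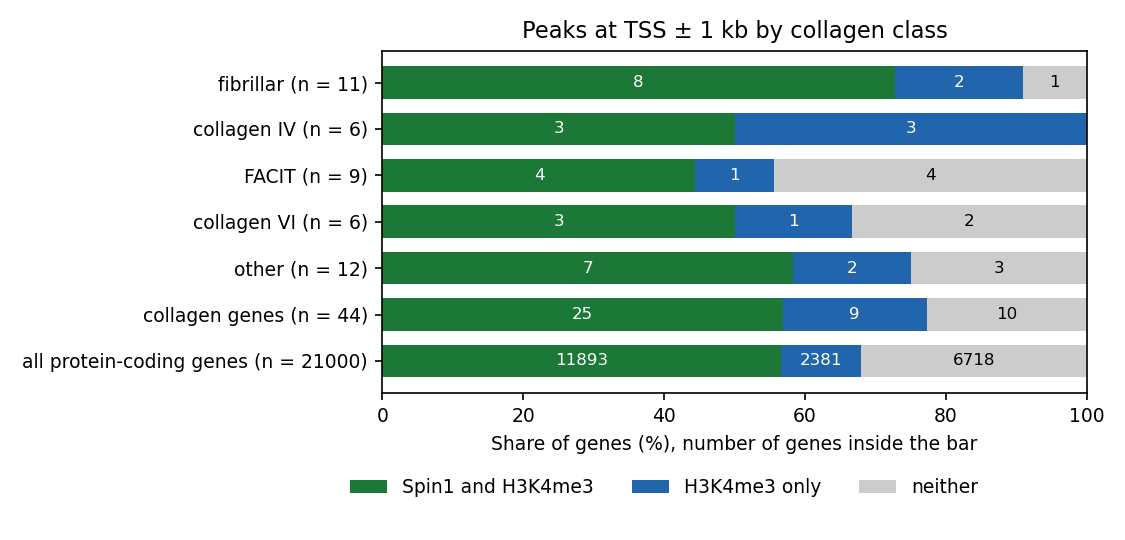
Share of genes with both peaks, H3K4me3 only or neither peak at TSS±1 kb, for each collagen class, all 44 collagen genes and all 21000 protein-coding genes, with the number of genes in each bar. The fibrillar class had both peaks at 8 of 11 genes, each collagen IV gene had H3K4me3, and the 8 protein-coding genes with Spin1 alone are not drawn.

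The size of the peaks set some collagen genes apart from the rest. The score of a peak is 10 times the negative log10 of its MACS p-value, rises with width and read depth, and accumulates at 3100. The median score of the best Spin1 promoter peak was 1259 at 25 collagen genes and 2986 at 11901 protein-coding genes. A score under 500 was found at 10 of the 25 genes, or 40%, compared with 11.5% of all genes with Spin1. These 10 genes were Col4a5, Col6a1, Col6a2, Col8a1, Col11a1, Col13a1, Col14a1, Col15a1, Col23a1 and Col25a1. At the other end, 8 genes or 32% reached a score of 3100, compared with 48.8%. When only the 50% of Spin1 peaks with the highest scores were kept, 13 collagen genes or 29.5% were occupied, compared with 42.8% of all genes, so that the similar shares given above held for the whole peak list and not for its stronger part.

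Widths showed a different picture for each library. The median width of the widest Spin1 promoter peak was 1648 bp at collagen genes and 2295 bp at all genes. For H3K4me3, these widths were 3342.5 and 3247 bp. However, 10 of the 34 collagen genes with H3K4me3, or 29.4%, had a peak of at least 5748 bp, the 90th percentile of all genes with H3K4me3. These were Col1a1, Col1a2, Col3a1, Col5a1, Col5a2, Col4a1, Col4a2, Col12a1, Col19a1 and Col6a3, and they held 9 distinct peaks because Col4a1 and Col4a2 share theirs. All 10 had Spin1. At 25 genes with both peaks, the widest Spin1 peak was 43.4% as wide as the H3K4me3 peak at the median, compared with 65% for all genes, with a range from 17.5% to 107.9%. With all Spin1 peaks in the H3K4me3 peak counted, the median part covered was 51.7% at 26 collagen genes and 66.2% at 11958 genes. The Spin1 peak lay inside the H3K4me3 peak at 24 of 25 genes, or 96%, compared with 91.7%. Over these 25 genes the widths of both peaks were related with a Spearman's rho of 0.73, compared with 0.80 over 11893 genes. Points share 2 libraries, so this describes the peak lists only.

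**Figure D2:**
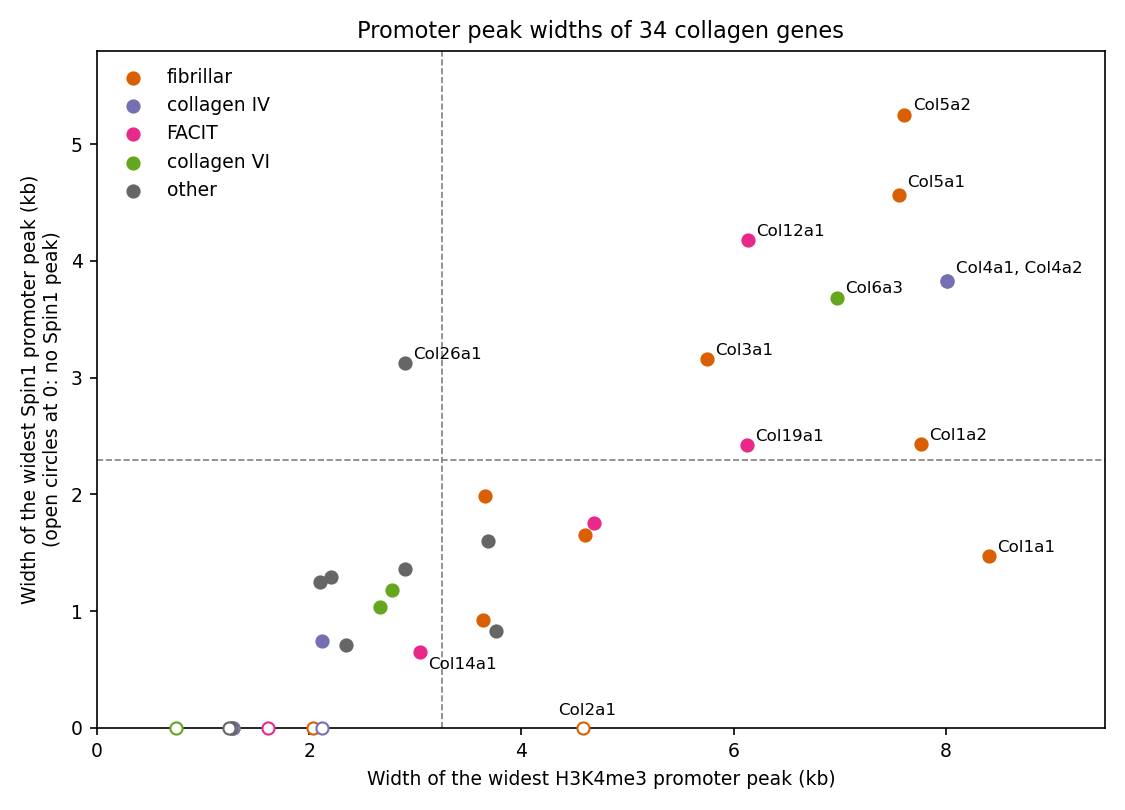
Width in kb of the widest Spin1 promoter peak against that of the widest H3K4me3 promoter peak for 34 collagen genes, colored by class, with open circles at 0 for the 9 genes without Spin1 and dashed lines at the medians of all protein-coding genes, 2295 bp for Spin1 and 3247 bp for H3K4me3. Col1a1 combined the widest H3K4me3 peak with a Spin1 peak of 1468 bp, and Col5a2 had the widest Spin1 peak.

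Among fibrillar genes, those for the collagens of ordinary connective tissue had the widest H3K4me3 peaks. Col1a1 and Col1a2 encode the chains of collagen I, the main fibril collagen of tendon, skin and bone. At Col1a1, on chromosome 11, a H3K4me3 peak of 8411 bp (chr11:94935190-94943600) extended 7376 bp into the gene and covered 43.9% of its length. Spin1 did not follow as 1 wide peak. Instead, 5 separate Spin1 peaks overlapped this region and covered 52.9% of it, and the one over the TSS (chr11:94936014-94937481) had a width of 1468 bp and a score of 1275. At Col1a2 (H3K4me3 at chr6:4504801-4512564), 3 Spin1 peaks covered 49.1% of 7764 bp, and the promoter peak (chr6:4505235-4507662) had a width of 2428 bp and a score of 3100. Thus, both chain genes of collagen I carried several Spin1 peaks within 1 broad H3K4me3 peak.

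Col3a1 encodes collagen III, which forms mixed fibrils with collagen I. Its Spin1 peak (chr1:45310830-45313991) had a width of 3162 bp and a score of 2129, inside a H3K4me3 peak of 5752 bp (chr1:45310698-45316449). The collagen V genes Col5a1 and Col5a2, whose products start the assembly of collagen I fibrils, had the widest Spin1 peaks of the family. The peak at Col5a2 (chr1:45498489-45503741) was 5253 bp wide and wider than 97.9% of Spin1 promoter peaks, and that at Col5a1 was 4561 bp wide, at a percentile of 95.4. Both had a score of 3100. Col5a2 starts 191744 bp from Col3a1 on the opposite strand, and no peak was shared between these genes. Col5a3, the gene for a less common collagen V chain, had a narrower Spin1 peak of 1982 bp and a score of 1123.

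The remaining fibrillar genes are best known from cartilage or as minor fibril components. Col2a1, the gene for the main cartilage collagen, had a H3K4me3 peak of 4585 bp with a score of 3100 and no Spin1 peak. It was the widest H3K4me3 peak of a collagen gene without Spin1. The collagen XI genes differed from each other, since Col11a1 carried a Spin1 peak of 923 bp with a score of 116 inside 3641 bp of H3K4me3, and Col11a2 had neither peak. Col24a1 had H3K4me3 alone over 2035 bp, and Col27a1 had a Spin1 peak of 1648 bp with a score of 1083. Markers of chondrocytes, the cells of cartilage, had Spin1 at 2 of 6 genes, or 33.3%, compared with 56.7% of all genes. These were Sox9 with a score of 3100 and Matn3 with a score of 102. H3K4me3 was at 5 of 6, or 83.3%, compared with 68%, and stood alone at Acan, Cnmd and Hapln1. Matn1 had neither peak.

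The map of peaks around the TSS shows how Spin1 peaks were arranged in the H3K4me3 peaks. Of 26 collagen genes with a Spin1 peak anywhere in the widest promoter H3K4me3 peak, 11 or 42.3% had more than 1, compared with 9.63% of 11958 protein-coding genes. The 26 genes include Col4a6, through the H3K4me3 peak that its window shares with Col4a5. Since wide peaks have room for more, genes with a H3K4me3 peak between 5700 and 8500 bp were compared, a range set after seeing the values so that it holds the 10 collagen genes with the widest peaks. Width was not matched within this range. Col1a1, Col1a2, Col4a1, Col4a2, Col5a1, Col5a2 and Col6a3 had peaks of at least 6974 bp, at a percentile of 95.2 or higher, whereas 5748 bp is the 90th percentile. More than 1 Spin1 peak was present at 9 of the 10 collagen genes in the range and at 392 of 1188 protein-coding genes, or 33%. Col4a1 and Col4a2 share their region, so this was 8 of 9 distinct regions. At Col5a2, Col12a1 and Col19a1 the peaks were less than 100 bp apart. With such neighbors merged, 6 of the 10 collagen genes and 27.5% of the 1188 genes had more than 1 peak. Before merging, Col5a1 was the exception, with 1 unbroken peak over 60.3% of the region. The median part of the region under Spin1 was 58.2% for these 10 genes and 65.6% for the 1188 genes. At Col1a1, the 3 Spin1 peaks in the gene beyond the promoter window had scores of 203, 103 and 110. At the other collagen genes of this range with more than 1 Spin1 peak, the further peaks were also weak. Their scores ranged from 88.5 at Col5a2 to 268 at Col12a1, all from 1 library. The lowest score in the Spin1 list was 50.7 and the median 1239.

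**Figure D3:**
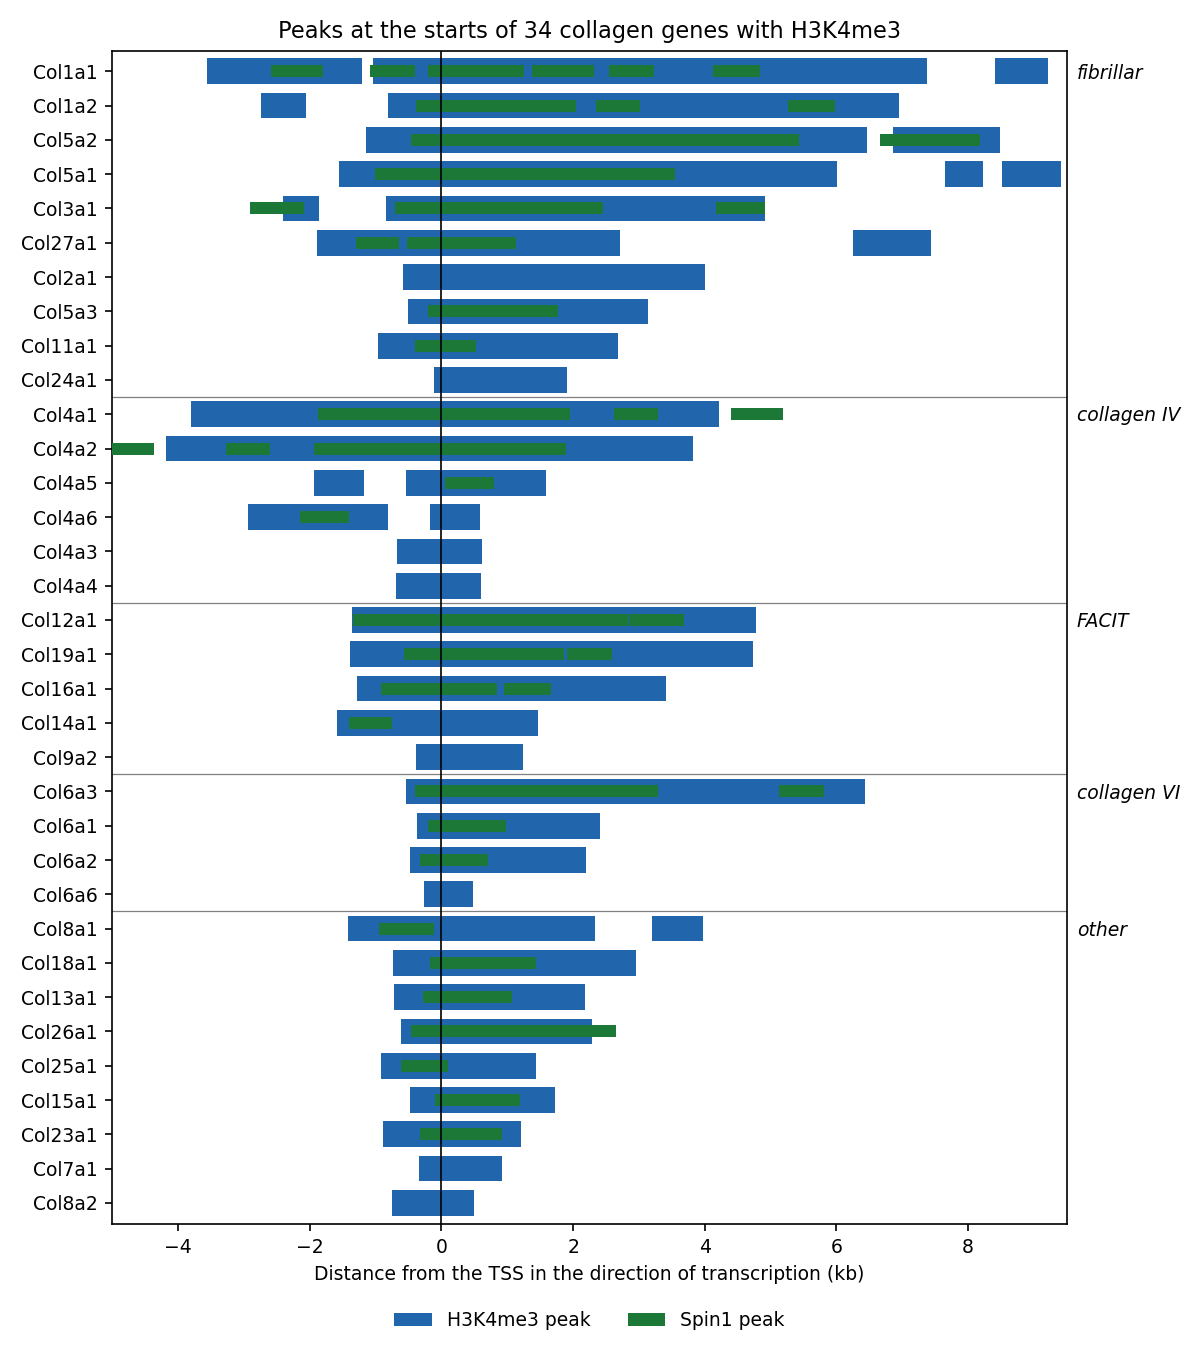
Position of all H3K4me3 peaks (blue) and Spin1 peaks (green) around the TSS of 34 collagen genes with H3K4me3, grouped by class and sorted by H3K4me3 width, with distance in kb in the direction of transcription. At Col1a1, 5 Spin1 peaks overlap 1 H3K4me3 peak of 8411 bp, whereas Col5a1 shows a single Spin1 peak of 4561 bp over the TSS.

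Both marks lay mainly on the transcribed side of the TSS. The Spin1 peak reached further downstream than upstream at 20 of 25 collagen genes, or 80%, compared with 80.6% of all genes. For H3K4me3, this was the case at 28 of 34 genes, or 82.4%, compared with 82.3%. The median reach of H3K4me3 was 786 bp upstream and 2373.5 bp downstream at collagen genes, and 1052 and 2012 bp at all genes. At 3 genes the Spin1 peak did not cover the TSS. It began 58 bp downstream at Col4a5, ended 118 bp upstream at Col8a1 and ended 751 bp upstream at Col14a1, where the Spin1 peak of 647 bp was the narrowest among the widest promoter peaks of the 25 genes.

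Collagen IV genes lie in the genome as head-to-head pairs, in which neighboring genes are transcribed away from each other. The 6 genes form 3 such pairs, and each pair had a different state. Col4a1 and Col4a2 encode the chains found in nearly all basement membranes. Their TSSs on chromosome 8 are 21 bp apart and arranged so that the first exons overlap by 22 bases. The sequence in which both genes begin is shown because a single peak of each library lay over it. It is taken from RefSeq, GRCm38.p6, plus strand, chr8:11312805-11312826, with CG dinucleotides in capitals.
Col4a1 and Col4a2, bases in both first exons: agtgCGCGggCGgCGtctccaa
The Spin1 peak over this sequence (chr8:11310871-11314695) had a width of 3825 bp and a score of 3100, and the H3K4me3 peak (chr8:11308617-11316632) had a width of 8016 bp, wider than 97.1% of all H3K4me3 promoter peaks. A further Spin1 peak in the same H3K4me3 peak lay on the Col4a1 side.

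Col4a3 and Col4a4 encode chains of the basement membranes of kidney, lung and inner ear. Their TSSs on chromosome 1 are 72 bp apart, with 71 bases between them. A single H3K4me3 peak of 1284 bp with a score of 1402 (chr1:82586251-82587534) covered both TSSs. No Spin1 peak was present, and the nearest Spin1 peak was 137266 bp away. The bases between the starts are printed from the plus strand, chr1:82586850-82586920, with CG in capitals, since they form the whole intergenic part of a start region with H3K4me3 and no Spin1.
Col4a3 and Col4a4, bases between the starts: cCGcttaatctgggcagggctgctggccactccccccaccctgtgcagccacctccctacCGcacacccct
This stretch held 2 CG in 71 bases, compared with 4 in the 22 bases at Col4a1 and Col4a2.

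Col4a5 and Col4a6 lie on the X chromosome, with 1342 bases between the starts. Col4a5 had the lowest-scoring Spin1 promoter peak of the family (chrX:141475477-141476222), with a width of 746 bp and a score of 101, inside a H3K4me3 peak of 2123 bp (chrX:141474886-141477008). Col4a6 had a separate H3K4me3 peak over its TSS (chrX:141473488-141474249), with a width of 762 bp and a score of 108. The H3K4me3 peak of Col4a5 also reached into the window of Col4a6 and is the one given for Col4a6 where the widest peak is used. The nearest Spin1 peak was 1401 bp from the Col4a6 TSS, so that Col4a6 counts as occupied in a window of TSS±2 kb. The 120 bases before each start are shown in the direction of transcription because the genes of this pair differed in Spin1, at chrX:141475299-141475418 on the plus strand for Col4a5 and at chrX:141474077-141474196 on the minus strand for Col4a6, with CG in capitals.
Col4a5: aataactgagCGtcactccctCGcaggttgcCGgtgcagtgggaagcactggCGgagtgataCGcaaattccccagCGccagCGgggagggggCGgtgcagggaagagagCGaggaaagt
Col4a6: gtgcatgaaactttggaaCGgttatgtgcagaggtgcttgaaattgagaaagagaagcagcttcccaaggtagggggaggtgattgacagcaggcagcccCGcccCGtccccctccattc
The Col4a5 sequence held 9 CG and the Col4a6 sequence 3. The map of the pairs shows the peaks at all 6 genes.

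**Figure D4:**
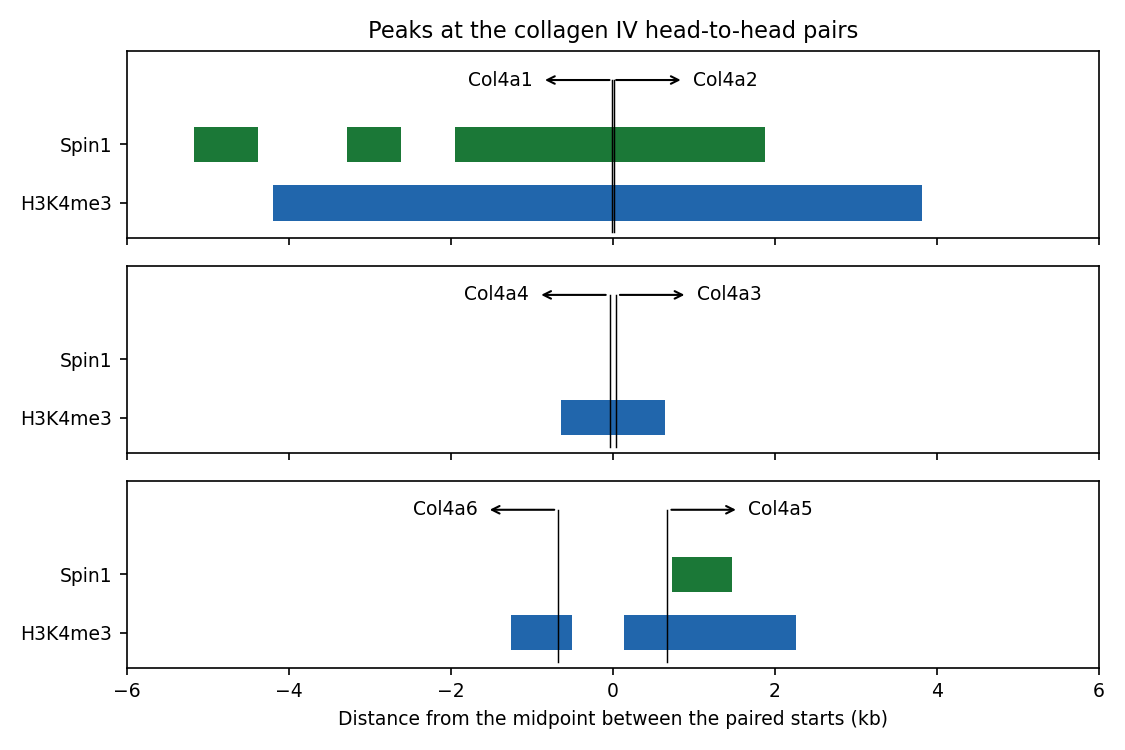
Spin1 peaks (green) and H3K4me3 peaks (blue) within 6 kb of the midpoint between the starts of each collagen IV pair, with arrows for the direction of transcription and distance in kb. Col4a1 and Col4a2 share 1 Spin1 peak of 3825 bp, Col4a3 and Col4a4 share H3K4me3 alone, and Spin1 is seen at Col4a5 but not over the Col4a6 TSS.

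In collagen VI, the chains of the classical filament were separated from the others. Col6a1, Col6a2 and Col6a3 form this filament together and all carried both peaks. Col6a3, the gene for the largest of these chains, had a Spin1 peak of 3685 bp with a score of 3100 (chr1:90840687-90844371) in a H3K4me3 peak of 6974 bp. The Spin1 peak at Col6a1 (chr10:76725062-76726242) was 1181 bp wide with a score of 310, and that at Col6a2 (chr10:76622692-76623722) was 1031 bp wide with a score of 180. With the stronger 50% of peaks, Spin1 remained at Col6a3 alone. Col6a4, Col6a5 and Col6a6 encode chains that can take the place of the Col6a3 product. Col6a4 and Col6a5 had neither peak, and Col6a6 had H3K4me3 of 745 bp with a score of 97.6, the weakest of the 34 genes.

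The FACIT genes had both peaks at 4 of 9 genes, or 44.4%, compared with 56.6% of all genes. Col12a1, whose product is found in tendon and around muscle, had a Spin1 peak of 4181 bp and a H3K4me3 peak of 6135 bp. Col19a1, which is active in developing muscle, had a Spin1 peak of 2424 bp with a score of 2040, and Col16a1 had one of 1758 bp with a score of 1518. At Col14a1, the score was 114. Of the collagen IX genes, which serve cartilage, Col9a2 had H3K4me3 alone over 1615 bp and Col9a1 and Col9a3 had neither peak. Col20a1 and Col22a1, the latter a collagen of the junction between muscle and tendon, also had neither peak. At Col22a1, the nearest Spin1 peak was 774772 bp away, the greatest distance among the 19 genes without Spin1, which had a median of 38251 bp.

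The remaining class holds membrane-bound collagens, collagens with an endostatin domain and network-forming types. Col26a1 was the sole gene whose widest Spin1 promoter peak reached beyond H3K4me3. This Spin1 peak of 3128 bp with a score of 3100 (chr5:136880557-136883684) was wider than the H3K4me3 peak of 2898 bp. The membrane collagens Col13a1, Col23a1 and Col25a1, of which Col13a1 and Col25a1 take part in forming the neuromuscular junction, had Spin1 scores of 420, 449 and 110, and Col17a1, the gene for the membrane collagen of skin attachment, had neither peak. The endostatin collagens Col15a1 and Col18a1 had Spin1 scores of 326 and 1259. Col18a1 has 2 curated TSSs, of which the upstream one (chr10:77166530-77166530) had both peaks and the downstream one (chr10:77113705-77113705) H3K4me3 alone. The partner genes of collagen VIII differed, with Spin1 of 833 bp at Col8a1 and H3K4me3 alone at Col8a2. Col7a1, the anchoring fibril collagen of skin, had H3K4me3 alone. Col10a1 of growing cartilage and Col28a1 had neither peak.

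The CpG content of the promoter was then compared, since both marks are generally found at CpG-rich promoters. It is given as the number of CG dinucleotides in TSS±0.5 kb relative to the number expected from the C and G content, with the highest value for genes with several TSSs. The median was 0.45 for collagen genes and 0.61 for all genes. For genes with both peaks, the median was 0.51 among collagens and 0.76 among all genes. Of 16 collagen genes with a value under 0.4, 5 had Spin1 and 8 had H3K4me3. These shares of 31.2% and 50% compare with 7.87% and 15.6% of 7305 protein-coding genes under 0.4. The ratio was not matched between these groups, since 13 of the 16 collagen genes but 3236 of the 7305 genes lay from 0.2 to 0.4. In that bin, Spin1 was at 30.8% of collagen genes and 14.9% of all genes, and H3K4me3 at 53.8% and 29%. At 0.4 or more, Spin1 was present at 20 of 28 collagen genes, or 71.4%, compared with 82.7%, and H3K4me3 at 26, or 92.9%, compared with 95.9%. The ratio was not matched here either, since 15 of the 28 collagen genes but 2894 of the 13695 genes lay from 0.4 to 0.6. In this bin, Spin1 was at 60% of collagen genes and 53.6% of all genes, and H3K4me3 at 86.7% and 83.9%. The Spin1 shares were 81.8% and 86.4% from 0.6 to 0.8, and 100% of 2 genes and 95.3% at 0.8 or more. Among genes with H3K4me3, Spin1 was at 4 of 7 collagen genes and 482 of 937 genes in all from 0.2 to 0.4. From 0.4 to 0.6, it was at 9 of 13 and 1551 of 2427. The counts were 9 of 11 and 4995 of 5697 from 0.6 to 0.8. Under 0.2 they were 1 of 1 and 85 of 200, and at 0.8 or more 2 of 2 and 4780 of 5013. The collagen genes with Spin1 at a CpG-poor promoter were Col1a1, Col3a1, Col5a2, Col6a1 and Col6a3. At the 8 CpG-poor collagen genes with H3K4me3 the median width was 4265.5 bp, compared with 2073 bp at 1137 such genes in all. With the ratio taken at the TSSs that carry H3K4me3, Col6a6 joined this group, and the median fell to 2779 bp at 9 genes, compared with 2067.5 bp at 1150 genes.

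**Figure D5:**
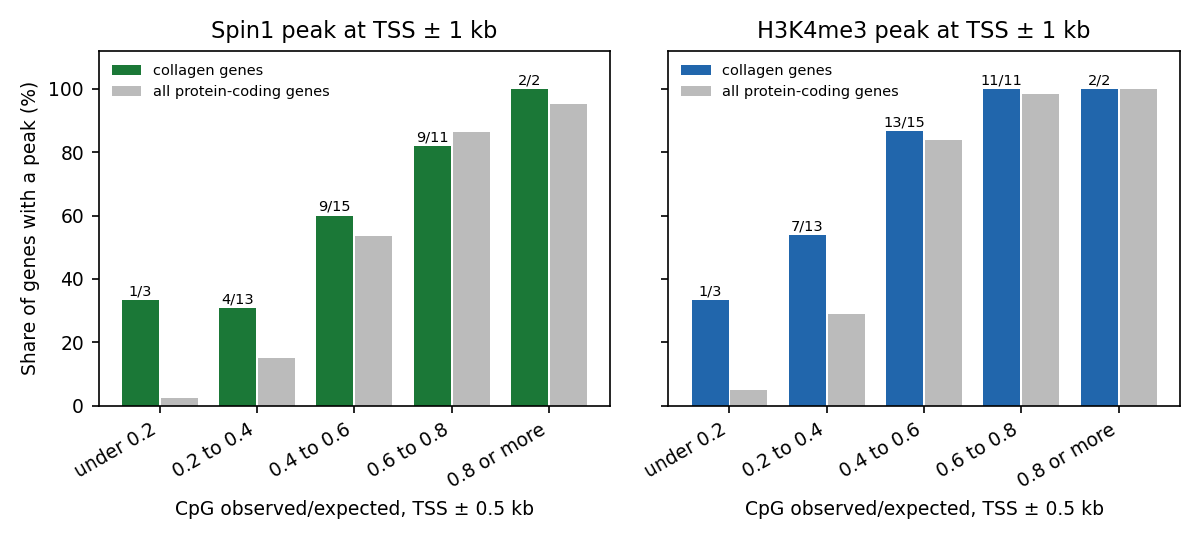
Share in percent of collagen genes (colored bars, with the number of genes above) and of all protein-coding genes (grey bars) with a Spin1 peak (left) or H3K4me3 peak (right) at TSS±1 kb, by the ratio of observed to expected CpG in TSS±0.5 kb. Spin1 was found at 1 of 3 and 4 of 13 collagen genes in the bins under 0.2 and from 0.2 to 0.4, where all genes reached 2.26% and 14.9%.

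Examples of promoter sequence were picked by ratio and state, so their differences in CG follow from the choice. The 120 bases before the TSS (RefSeq, GRCm38.p6, in the direction of transcription, CG in capitals) are shown for a pair of CpG-rich genes with both peaks, a pair of CpG-poor genes with both peaks and a pair of CpG-poor genes with neither. They were chosen as the genes with the highest or lowest ratio for which a promoter sequence was at hand, with Col6a3 taken for its strong Spin1 peak. The positions are chr11:51289800-51289919 (plus strand) for Col23a1, chr2:27886305-27886424 (plus) for Col5a1, chr1:45311418-45311537 (plus) for Col3a1, chr1:90843972-90844091 (minus) for Col6a3, chr6:8192618-8192737 (minus) for Col28a1 and chr2:180986415-180986534 (plus) for Col20a1.
Col23a1, both peaks: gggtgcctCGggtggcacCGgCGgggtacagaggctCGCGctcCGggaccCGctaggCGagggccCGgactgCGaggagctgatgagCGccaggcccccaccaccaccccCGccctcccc
Col5a1, both peaks: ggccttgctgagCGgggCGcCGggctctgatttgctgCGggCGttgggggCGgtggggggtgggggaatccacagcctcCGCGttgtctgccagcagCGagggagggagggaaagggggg
Col3a1, both peaks: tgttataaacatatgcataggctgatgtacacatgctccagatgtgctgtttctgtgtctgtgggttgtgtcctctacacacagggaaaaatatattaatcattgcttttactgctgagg
Col6a3, both peaks: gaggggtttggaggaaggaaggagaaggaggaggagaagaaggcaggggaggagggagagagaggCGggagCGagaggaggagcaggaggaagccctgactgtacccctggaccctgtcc
Col28a1, neither peak: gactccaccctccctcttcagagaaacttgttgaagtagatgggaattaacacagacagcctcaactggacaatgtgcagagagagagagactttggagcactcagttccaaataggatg
Col20a1, neither peak: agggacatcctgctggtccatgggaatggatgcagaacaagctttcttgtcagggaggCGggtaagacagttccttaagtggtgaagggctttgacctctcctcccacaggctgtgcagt
Col23a1 held 12 CG and Col5a1 9, Col3a1 held 0 and Col6a3 2, and Col28a1 held 0 and Col20a1 1. Col3a1 and Col28a1 therefore had the same count in this stretch, with a Spin1 score of 2129 at Col3a1 and no peak at Col28a1. Over TSS±0.5 kb, however, the ratio was 0.178 at Col3a1 and 0.084 at Col28a1.

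Within the gene bodies, defined here as the transcribed region outside the promoter windows, 19 Spin1 peaks were found in 12 collagen genes and 51 H3K4me3 peaks in 20. Collagen genes are long, with a median length of 114 kb compared with 16.7 kb for all genes. Among genes of at least 100 kb, 8 of 26 collagen genes had a Spin1 body peak, or 30.8%, compared with 28.8% of all such genes. For H3K4me3, the counts were 17 of 26, or 65.4%, compared with 58.2%. Among shorter genes, Spin1 body peaks were found at 4 of 18 collagen genes, or 22.2%, compared with 8.41%, and H3K4me3 body peaks at 3 of 18, or 16.7%, compared with 19.6%. The median length in this group was 30.1 kb for collagen genes and 13.6 kb for all genes, so length was not matched. The 4 genes with Spin1 body peaks were Col1a1, Col1a2, Col3a1 and Col6a3, and their 7 peaks lay in the H3K4me3 peak of the promoter. Of all 19 Spin1 body peaks, 11 in 8 genes lay inside the promoter H3K4me3 peak of the same gene.

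Genes that act on collagen were compared as further lists. Maturation of the chains requires hydroxylases, the chaperone Serpinh1, export factors and crosslinking enzymes, and 31 of 32 such genes had both peaks. P3h4 and Fkbp10 had equal widths, 6455 bp for Spin1 and 6835 bp for H3K4me3, so a shared promoter may be counted for each. Loxl2, a crosslinking enzyme, had H3K4me3 alone. Serpinh1 had a Spin1 peak of 5215 bp in 9434 bp of H3K4me3. Of 10 collagen receptors, Itga1, Itga2, Itgb1, Ddr1 and Mrc2 had both peaks, Itga11 had H3K4me3 alone, and Itga10, Ddr2, Gp6 and Lair1 had neither. Among 6 degrading enzymes, Mmp2 and Mmp14 had both peaks, Mmp9 and Ctsk H3K4me3 alone, and Mmp8 and Mmp13 neither. Of 7 small proteoglycans that coat fibrils, Bgn had both peaks, Dcn, Lum and Ogn had H3K4me3 alone, and Fmod, Aspn and Prelp had neither. Among 15 other basement membrane genes, 11 had both peaks, or 73.3%, compared with 56.6% of all genes. The shares with both peaks were 50% for receptors, 33.3% for degrading enzymes and 14.3% for small proteoglycans. Thus, the 32 maturation genes had a higher share of Spin1, 96.9%, than the collagen genes at 56.8% and all genes at 56.7%, as a count without a test.

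The label of the cells was checked with markers. Spin1 and H3K4me3 were each present at 9 of 9 myoblast markers, compared with 56.7% and 68% of all genes. Fibroblast markers had H3K4me3 at 10 of 10 genes and Spin1 at 6, or 60%, where all genes had 68% and 56.7%, with H3K4me3 alone at Thy1, Dcn, Lum and Tcf21. Since fibroblasts are a major source of collagen and can remain after preplating, these counts stand beside all collagen values, and their part in them was not tested. Endothelial markers had no Spin1 peak, with H3K4me3 at Cdh5, Kdr and Tek and neither peak at Pecam1, Tie1, Emcn and Vwf. Of 4 leukocyte markers, Cd68 had H3K4me3 alone, and Ptprc, Adgre1 and Spi1 had neither. Of 4 keratinocyte markers, Trp63 had H3K4me3 alone, and Krt5, Krt14 and Dsg3 had neither. The neuronal markers Rbfox3, Snap25 and Syp had H3K4me3 alone.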

How the data were processed

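ChIP-seq was performed with 1 Spin1 and 1 H3K4me3 library, amplified with 12 PCR cycles. Paired-end reads had been aligned to mm10 (bowtie 2) by the authors, who then ran MACS 1.4.2 with the input as background and kept peaks up to a false discovery rate of 1%. They deposited 17106 Spin1 and 30763 H3K4me3 peaks, each as start, end and a score of 10 times −log10 of the p-value that MACS gave. Read counts are not part of these lists, so depth is unknown, and low depth would leave weak peaks uncalled.

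Peaks were compared with 26032 TSSs of curated RefSeq transcripts (GRCm38.p6), at a minimum overlap of 1 bp in TSS±1 kb. With several promoter peaks, width refers to the widest and score to the highest. Coordinates count from 1. Promoter sequences were taken from RefSeq (GRCm38.p6), which matched 35 of 44 genes. No sequence was matched for Col1a1, Col2a1, Col4a3, Col5a2, Col9a3, Col12a1, Col14a1, Col22a1 and Col26a1. The bases between Col4a3 and Col4a4 came from the Col4a4 entry.

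No test was made, since each antibody had 1 library. All 44 genes are named with their state. Of the further lists, genes without Spin1 are named, except in the basement membrane list, and 1 marker list is not reported here. Coordinates are given for the collagen IV pairs, the main collagen I, III and VI genes and the widest and lowest-scoring Spin1 peaks, and additionally for Col26a1, Col18a1 and some peaks within genes, which were picked once values were known. The genes and lists were chosen with earlier results of these data known, and the limits of 500 for the score, 0.4 for CpG and 5700 to 8500 bp for width were set after seeing values. Alternatives were other windows, overlaps, score limits and TSS choices. The input library and 22 RNA-seq samples are not analysed here. Scripts used pysam 0.24.0, pandas 2.3.3, matplotlib 3.10.9, SciPy 1.17.1 and NumPy 2.4.6 in Python 3.11.15.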

Additional observations from a re-analysis of the deposited data

How the results depend on the processing

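Of 153 values, from 17 results under 9 alternatives, 140 stayed within 1.5 times the count given above or within an interval around the median. This interval was wide, from 1250 to 3128 bp for Spin1 and from 2204 to 4685 bp for H3K4me3. It was drawn from the ranks of genes that share 2 libraries, so it does not measure a spread between cultures. With the 50% of peaks with the highest scores, Spin1 was found at 13 collagen genes, both peaks at 13 and H3K4me3 without Spin1 at 16. Spin1 was then at 5 fibrillar, 1 collagen VI and 2 other genes, and the median Spin1 width was 3162 bp. When the center of the peak had to lie in the window, H3K4me3 was found at 22 genes and both peaks at 12, with H3K4me3 at 3 fibrillar, 2 FACIT and 2 collagen VI genes and a median H3K4me3 width of 2163.5 bp. H3K4me3 was then at 50% of collagen genes and 56.2% of all genes, the opposite order to the 77.3% and 68% given above. Spin1 was at 45.5% and 52.6%. This rule leaves out peaks centered more than 1 kb from the TSS. For H3K4me3, these included the wide peaks of Col1a1, Col1a2, Col3a1, Col5a1, Col5a2 and Col6a3. The narrower H3K4me3 peak of Col6a1, with 2779 bp, was also left out. The H3K4me3 peak of 8016 bp that Col4a1 and Col4a2 share was kept. A window of TSS±0.5 kb and an overlap of 500 bp left out Spin1 at Col14a1, TSS±2 kb added Col4a6, and peaks over the TSS itself left out Col4a5, Col8a1 and Col14a1. A score of at least 100 left out H3K4me3 at Col6a6. Over all alternatives, Spin1 was found at 13 to 26 collagen genes and H3K4me3 at 22 to 34. Alternatives chosen after seeing the data were the CpG ratio at TSSs with H3K4me3, which moved the median H3K4me3 width of CpG-poor collagen genes to 2779 bp, and the merging of Spin1 peaks less than 100 bp apart. No paired analysis was possible because each antibody had 1 library. The unknown depth limits what a missing peak means.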

Other observations

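Some peaks in collagen genes lay far from the curated TSSs. In Col8a2, which had H3K4me3 alone at its TSS, a H3K4me3 peak of 1749 bp with a score of 3100 (chr4:126300430-126302178) lay 14510 bp downstream, without Spin1, and exceeded the promoter peak in width (1246 bp) and score (2148). In Col18a1, a H3K4me3 peak of 1608 bp with a score of 651 (chr10:77088816-77090423) lay 76910 bp downstream of the upstream TSS, also without Spin1. Col4a1 and Col4a2 held 11 H3K4me3 body peaks, none of which overlapped a Spin1 peak. Among all 51 H3K4me3 body peaks of collagen genes, 46 or 90.2% had no Spin1 peak, compared with 79.7% of 9013 such peaks in all protein-coding genes. The strongest Spin1 body peak, in Col23a1 (chr11:51583298-51586338), had a width of 3041 bp and a score of 3100 and covered the TSS of Phykpl, the neighboring gene, so it is not a collagen promoter peak.

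Promoter sequence was searched for short motifs from 250 bases before to 50 bases after the TSS, in 38 promoters of 35 collagen genes and 20488 promoters in all. CCAAT or its reverse complement was found in 13 of the 38, compared with 38.4% of all promoters. GGGCGG or its reverse complement was found in 23, compared with 47.6%. TATAAA on the coding strand between 40 and 20 bases before the TSS was found at Col10a1, which had neither peak, and in 2.53% of all promoters. By state, GGGCGG was present in 15 of 22 promoters of genes with both peaks, 5 of 7 with H3K4me3 alone and 3 of 9 with neither. It was not counted by state for all genes, so these counts have no background. The motif holds a CG, and the median CpG ratio of collagen genes was 0.51 with both peaks and 0.29 with neither. These matches are descriptions of the letters and no binding sites.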
